A study of Rattus norvegicus with 10 samples.

Results

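Cells make cholesterol from acetyl-CoA through the mevalonate pathway, and 7 genes of that pathway and of its feedback control were followed here in rat mammary tumors sampled before and after adriamycin. The gene set was listed as Hmgcs1, Sqle, Fdps, Idi1, Lss, Cyp51, Dhcr7 and Insig1, 8 genes in all. Every probe set that the array's annotation assigns to 1 of these symbols alone was taken. This gave 10 probe sets for 7 genes, among 31099 probe sets on the array and 12255 genes tested, while Hmgcs1 was not analysed here. The set was named for cholesterol synthesis and uptake, but its measured genes are 6 synthesis enzymes and 1 regulator, and none is an uptake receptor.

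The samples came from female Sprague-Dawley rats given a single oral dose of 100 mg/kg 7,12-dimethylbenz(a)anthracene (DMBA), a carcinogen that induces mammary tumors. A basal sample was a trucut needle biopsy of 0.7 cm by 2.5 mm, taken without treatment at 12 weeks of age, when the tumor had a volume of 2 cm3. A final sample of the same tumor was taken at sacrifice, at 19 weeks and in the 7th week after the biopsy. By then the rat had received adriamycin (doxorubicin, a drug that damages DNA) at 1 mg/kg per week for 6 weeks into a tail vein. The study followed 5 tumors, whose codes are 09I1, 11D2, 12I1, 29I1 and 43D1 (the tumor order used below), with 1 basal and 1 final array per tumor and 10 arrays in all, from tumors of Bloom-Richardson grade II. The sample labels describe the final sample as the total tumor and the design text describes it as a trucut biopsy. No untreated tumor of the later age was among the samples, all tumors came from rats given DMBA, and the array codes of the groups ran in separate blocks. Effects of adriamycin, of age and tumor growth, of the kind of sample and of the array series therefore cannot be told apart. The labels do not say whether the 5 tumors grew in 5 different rats, so p-values measure the spread between these tumors.

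In the mevalonate pathway, isoprenoid building blocks are joined to farnesyl diphosphate, 2 of which form squalene, and squalene is oxidised and closed into lanosterol, which further enzymes turn into cholesterol. When sterol is low in the endoplasmic reticulum, SCAP carries the transcription factor SREBP-2 to the Golgi, where it is cut, and its released part turns on most genes of the pathway. When sterol is plentiful, INSIG proteins hold SCAP and SREBP back. Proliferating cells draw on the pathway for membranes and for the lipid anchors of small GTPases.

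Values are log2 expression on the robust multichip average (RMA) scale, on which a step of 1 is a doubling. The medians of the 10 arrays lay between 5.93 and 6.12. One array differed from the rest, that of the final sample of 09I1, which had a median correlation of 0.938 with them, while the other 9 had 0.975 to 0.984. Its 3′ probe set for beta-actin exceeded the 5′ one by 2.61, against 0.72 to 0.96 on the other 9 arrays, a measure that widens when RNA is degraded. Its poly-A control probe sets had a mean of 7.98, against 5.42 to 5.93 on the other 9 arrays. The changes of the 7 genes are therefore given with and without tumor 09I1. All 11 luminal epithelial marker genes listed were measured, and their mean level lay between 10.57 and 11.25 on the 10 arrays. The samples are bulk tissue, so fewer cells of a type and less RNA per cell cannot be told apart.

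The promoters of 5 of the genes are shown first, since the set is described below by how its levels vary together and its genes are known targets of SREBP. RefSeq promoter windows, in build GRCr8 and limited here to the 250 bases before each gene's start, were matched for 6 of the 7 measured genes, all but Sqle. Capitals mark matches, on either strand, to 4 motifs chosen after the data were seen. These were TCACNCCAC (a sterol regulatory element, SRE), CACGTG (an E-box), CCAAT (the core bound by NF-Y, read as ATTGG on the other strand) and GGGCGG (a GC box bound by Sp1, read as CCGCCC). The window of Idi1 is chr17:66547525-66547774 on the minus strand, that of Fdps chr2:176804817-176805066 on the minus strand, that of Lss chr20:12118231-12118480 on the minus strand and that of Cyp51 chr4:30991443-30991692 on the plus strand. The window of Insig1 is chr4:8057813-8058019 on the minus strand and holds 207 bases, since the 43 nearest the start used in the table lie inside the gene as annotated.
Idi1: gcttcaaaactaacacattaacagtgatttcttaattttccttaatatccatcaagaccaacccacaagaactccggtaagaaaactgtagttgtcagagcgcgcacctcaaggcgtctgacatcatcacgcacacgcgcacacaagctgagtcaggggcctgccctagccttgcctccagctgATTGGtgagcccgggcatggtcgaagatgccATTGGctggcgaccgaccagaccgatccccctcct
Fdps: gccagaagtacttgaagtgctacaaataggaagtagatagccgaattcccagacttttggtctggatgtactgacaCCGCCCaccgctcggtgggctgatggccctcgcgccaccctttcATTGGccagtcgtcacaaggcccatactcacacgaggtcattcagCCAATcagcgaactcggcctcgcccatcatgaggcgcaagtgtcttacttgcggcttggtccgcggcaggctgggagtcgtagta
Lss: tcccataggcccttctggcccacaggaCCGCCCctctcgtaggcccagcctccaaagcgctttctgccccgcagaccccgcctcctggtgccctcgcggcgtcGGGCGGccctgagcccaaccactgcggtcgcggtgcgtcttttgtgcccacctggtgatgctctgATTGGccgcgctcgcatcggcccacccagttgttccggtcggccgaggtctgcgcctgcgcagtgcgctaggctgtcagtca
Cyp51: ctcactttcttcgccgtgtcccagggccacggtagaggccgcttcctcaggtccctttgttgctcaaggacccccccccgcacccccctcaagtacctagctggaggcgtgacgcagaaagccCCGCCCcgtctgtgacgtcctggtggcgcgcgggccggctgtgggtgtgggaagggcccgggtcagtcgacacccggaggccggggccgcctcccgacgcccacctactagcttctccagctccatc
Insig1: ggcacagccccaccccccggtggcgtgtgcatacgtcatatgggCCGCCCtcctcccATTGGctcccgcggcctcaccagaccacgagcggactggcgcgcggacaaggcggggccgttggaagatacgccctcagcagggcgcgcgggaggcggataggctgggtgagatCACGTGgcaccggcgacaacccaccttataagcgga
A CCAAT motif was found in 4 of the 6 windows (Idi1, Fdps, Lss and Insig1), against 34.3% of 27457 promoter windows of the same length. The GC box was found in 5 of 6 (all but Idi1), against 32.4% of all windows. Insig1 was the 1 gene of the 6 with a CACGTG match, 79 to 74 bases before the start used in the table, against 5.79% of all windows. The SRE letters were found in 0 of 6 windows, against 0.976% of all windows. At that share no match is the likely outcome for 6 windows of any genes. Sites with other letters or outside the windows were not searched, so the count does not show that SREs are absent. Matches to different motifs did not overlap in these 6 windows, and the 2 GC boxes of Dhcr7 shared 1 base. Idi1 and Fdps each held 2 CCAAT matches. In Idi1 they lay 66 to 62 and 35 to 31 bases before the gene start, and in Fdps 130 to 126 and 85 to 81 bases before it.

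The genes are taken in pathway order, beginning with the isoprenoid steps. Idi1 encodes isopentenyl-diphosphate isomerase, which interconverts the activated isoprene units. Its brighter probe set (1368878_at) read 7.92 (09I1), 9.68 (11D2), 9.55 (12I1), 10.10 (29I1) and 9.85 (43D1) before treatment. After treatment it read 8.57, 9.50, 9.01, 8.57 and 8.64 in the same order. Tumor 09I1 had the lowest basal value and the other 4 tumors all had a lower final than basal value, so that the groups overlapped through 09I1 alone. Limma with the tumor as a block gave a change of -0.56 ± 0.31 (SE, n = 5 tumors), a ratio of final to basal of 0.677, with an unadjusted p of 0.113 and an adjusted p of 0.977. Without tumor 09I1 the change was -0.86 ± 0.23 (limma, n = 4 tumors, unadjusted p = 0.00996, adjusted p = 0.509). The other Idi1 probe set (1388872_at) differed from it in direction. Its change was 0.23 ± 0.44 over 5 tumors and -0.29 without 09I1, where the single tumor's difference was 2.32.

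Fdps, farnesyl diphosphate synthase, makes the branch-point lipid that leads to squalene and to protein prenylation. On the basal arrays its probe set (1367667_at) read 9.83 (09I1), 10.54 (11D2), 10.93 (12I1), 11.05 (29I1) and 10.79 (43D1). The final values were 10.78, 10.82, 10.41, 10.10 and 10.56. Here 09I1 and 11D2 had higher final values and 12I1, 29I1 and 43D1 lower ones, and the groups overlapped. The change was -0.09 ± 0.27 over 5 tumors (limma, adjusted p = 0.977) and -0.36 ± 0.20 without 09I1 (limma, adjusted p = 0.684). It turned positive, at 0.12, when tumor 29I1 was left out.

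Sqle, squalene epoxidase, puts oxygen on squalene and is a rate-limiting enzyme of the sterol part of the pathway. Before treatment its probe set (1387017_at) read 7.50 (09I1), 8.97 (11D2), 9.34 (12I1), 9.16 (29I1) and 8.46 (43D1). In the final samples it read 7.57, 8.62, 8.66, 8.42 and 7.98. Within each of 4 tumors the final value was lower, by 0.35 to 0.74, and in 09I1 it was higher by 0.07, but the levels of the groups overlapped because the tumors differed from each other. Sqle had the smallest unadjusted p of the 7 genes, 0.031, for a change of -0.44 ± 0.16 (limma, n = 5 tumors, adjusted p = 0.977). Without 09I1 the change was -0.56 ± 0.11 (limma, n = 4 tumors, unadjusted p = 0.00227, adjusted p = 0.474).

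Lss, lanosterol synthase, closes oxidised squalene into the first sterol. Its brighter probe set (1372973_at) read 7.58 (09I1), 8.0 (11D2), 7.94 (12I1), 8.23 (29I1) and 8.07 (43D1) on the basal arrays. The final readings were 6.40, 7.94, 7.94, 7.66 and 7.82. The final array of 09I1 lay far below the other 9 arrays, and among the other 4 tumors the levels overlapped. Lss was the 1 gene of the 7 that was lower after treatment in tumor 09I1, with a difference of -1.19, on the array with the wide beta-actin difference. The part of RNA quality in that value was not tested. The mean change was -0.41 ± 0.21 with all tumors and -0.22 ± 0.14 without 09I1 (limma, adjusted p = 0.977 and 0.718). The dimmer Lss probe set (1368086_a_at) had changes of -0.17 and -0.09.

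Cyp51 encodes lanosterol demethylase, which takes the first methyl group off lanosterol. Its brighter probe set (1367979_s_at) read 8.25 (09I1), 9.65 (11D2), 9.81 (12I1), 10.13 (29I1) and 9.72 (43D1) before treatment. It read 8.93, 9.50, 9.31, 9.05 and 9.29 after it. As for Idi1, the basal array of 09I1 was the lowest of all 10, and in the other 4 tumors every basal value was above every final value. The change was -0.30 ± 0.24 over 5 tumors (limma, adjusted p = 0.977) and -0.54 ± 0.16 without 09I1 (limma, unadjusted p = 0.0147, adjusted p = 0.528). The second Cyp51 probe set (1387020_at) followed it, with changes of -0.19 and -0.46.

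Dhcr7 reduces dehydrocholesterol to cholesterol in a last step of synthesis. Its basal readings (1368189_at) were 8.22, 9.17, 8.96, 9.27 and 8.81 in tumor order, and its final readings were 8.92, 9.08, 8.91, 8.88 and 8.78. The final values lay within a span of 0.31, inside the basal span of 1.05. The change was 0.03 ± 0.18 over 5 tumors (limma, adjusted p = 0.99) and -0.14 ± 0.11 without 09I1 (limma, adjusted p = 0.773), with small differences of -0.09, -0.05 and -0.04 in 11D2, 12I1 and 43D1.

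Insig1, the regulator of the set, encodes a membrane protein of the endoplasmic reticulum that holds SCAP back when sterol is high, and it is itself a target of SREBP. Its probe set (1367894_at) read 7.33 (09I1), 8.19 (11D2), 8.88 (12I1), 9.01 (29I1) and 8.48 (43D1) before treatment. After treatment it read 8.34, 8.46, 8.08, 8.05 and 8.34. The final values of the 5 tumors were closer together than the basal ones, and the groups overlapped. The change was -0.13 ± 0.30 over 5 tumors (limma, adjusted p = 0.977) and -0.41 ± 0.22 without 09I1 (limma, adjusted p = 0.684). Leaving out 29I1 turned it to 0.082.

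**Figure D1:**
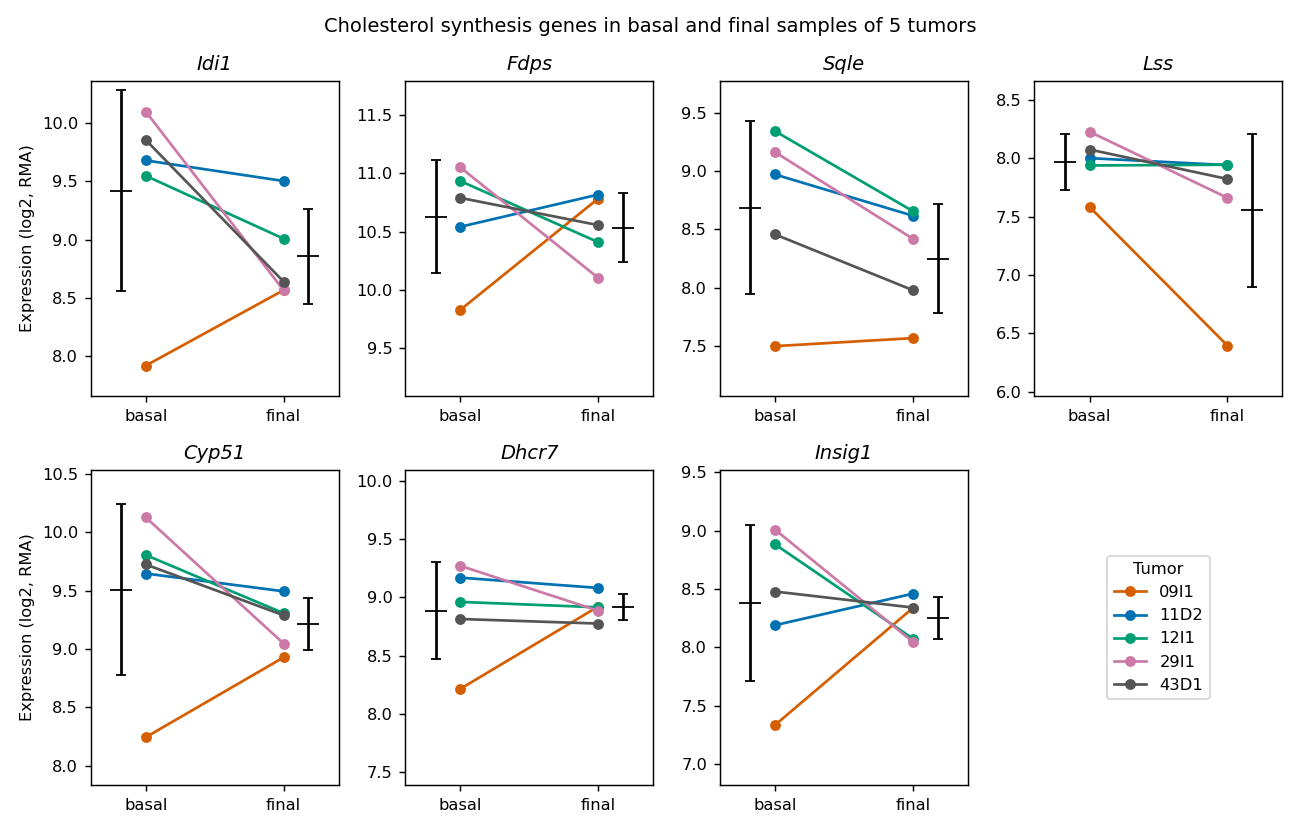
Expression of the brightest probe set of each of the 7 genes (log2, RMA) on the basal and the final array of each of 5 tumors, joined by a line per tumor; crosses with bars are group means ± SD (n = 5), and every panel spans the same number of log2 units. The basal value of tumor 09I1 is the lowest of the 5 basal values in all 7 panels, and the line of tumor 29I1 slopes down in all 7.

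Across the 7 genes, none passed the test of final against basal, as was true of the whole array. Limma called 0 of 23281 probe sets at an adjusted p under 0.05 (0.00%). At an unadjusted p under 0.05 it called 935 probe sets (4.02%), and 1081 reached that level by the methods' t-test, none of them after adjustment. Counted by gene on the brightest probe set, 1 of the 7 genes (Sqle) had an unadjusted p under 0.05, against 2.88% of all genes tested, or 1.10% when only a lower final level is counted. Without tumor 09I1 the count was 3 of 7 (Sqle, Idi1 and Cyp51, all lower) against 6.85%, or 3.45% when only a lower level is counted, again with 0 probe sets called after adjustment. The mean change was below 0 in 6 of 7 genes, against 47.3% of all genes, and the median change of the set was -0.30, against 0.01 over all genes. Without 09I1 that median was -0.41, against -0.01 over all genes, and without 29I1 it was -0.10. None of the 7 genes had the same sign of change in all 5 tumors (5.83% of all genes did), and in none did the groups fail to overlap (0.840% of all genes). These shares describe the set, which was chosen with earlier results of these data known.

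The direction within tumors was shared by the genes and differed between tumors. In 29I1 and in 43D1 all 7 genes were lower in the final sample, against 54.3% and 51.1% of all genes. In 12I1 6 of 7 were lower (43.0% of all genes), and in 11D2 5 of 7 (52.9%). In 09I1 the reverse held, with 1 of 7 lower (41.4%). The median difference of the 7 genes was -0.95 in 29I1, -0.52 in 12I1, -0.25 in 43D1, -0.09 in 11D2 and 0.68 in 09I1. Over the brightest probe sets, the lowest difference was -1.53, for Idi1 in 29I1, and the highest was 1.00, for Insig1 in 09I1. Of the 7 genes, 6 were lower in each of 12I1, 29I1 and 43D1, against 11.7% of all genes, and 4 were lower in all tumors but 09I1, against 7.96%. Idi1 and Cyp51 had every basal value above every final value once 09I1 was left out, against 2.71% of all genes.

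The lowest and the highest basal arrays were mostly the same for the 7 genes. Tumor 09I1 was the lowest of the 5 basal arrays for 7 of 7 genes, against 27.1% of all genes. Tumor 29I1 was the highest for 6 of 7, against 23.1%, the exception being Sqle, which was highest in 12I1. The basal SD exceeded the final SD for 6 of 7 genes, by 1.59 times for Sqle up to 3.79 times for Dhcr7. For Lss the ratio was 0.36. The median SD of the set was 0.67 over the basal and 0.29 over the final arrays, and over all genes 0.23 and 0.31. This contrast rested on tumor 09I1. Without it the basal SD was the larger for 4 of 7 genes, the median SD of the set was 0.22 over basal and 0.20 over final arrays (0.21 and 0.17 over all genes), and the ratio was 0.56 for Idi1 and 0.74 for Fdps. On the final arrays the 7 genes came closest to their 10-array medians in 43D1, 12I1 and 11D2, with median deviations of -0.12, -0.09 and 0.12. On the basal array of 09I1 the median deviation was -1.0 and on that of 29I1 it was 0.62.

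**Figure D2:**
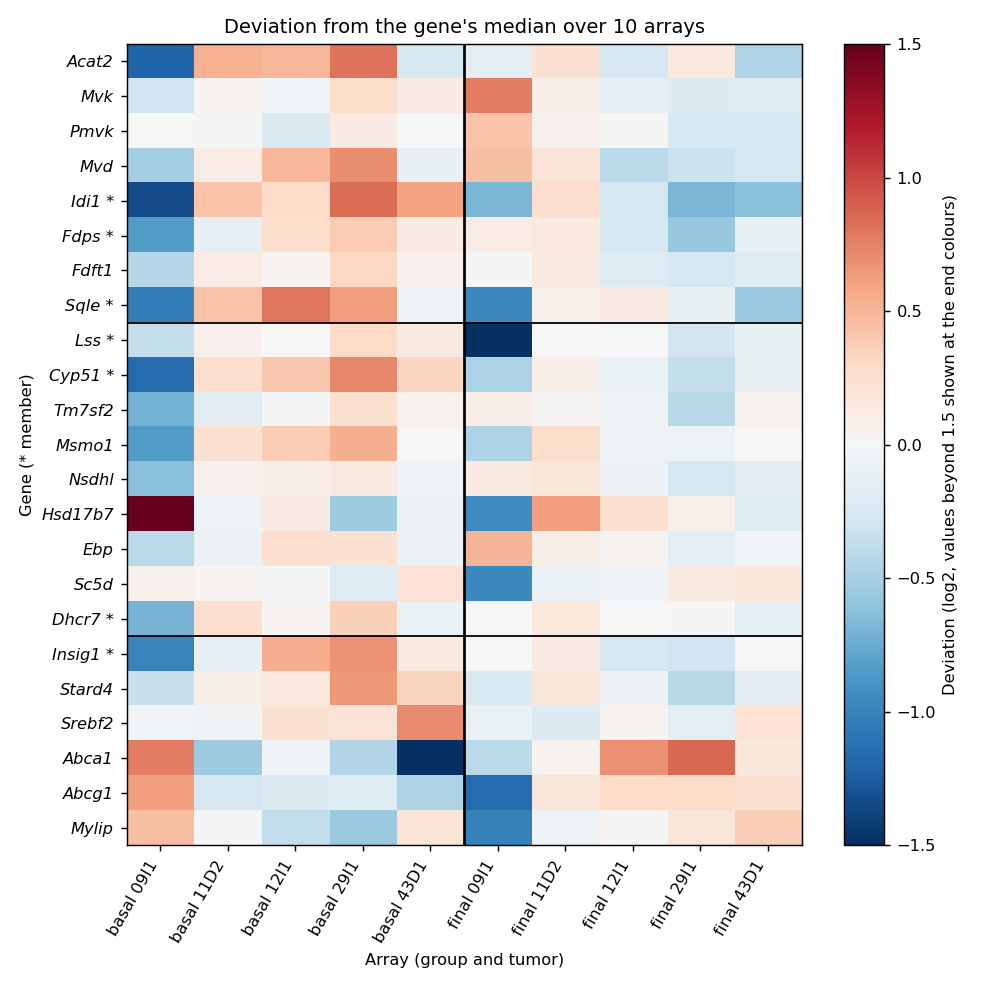
Deviation of each gene from its own median over the 10 arrays (log2, colour scale, with values beyond 1.5 shown at the end colours), with arrays in columns (basal left and final right of the vertical line) and genes in rows; stars mark the 7 genes, and horizontal lines separate the isoprenoid and squalene steps, the sterol steps, and genes of sensing, transport and efflux. The first column, basal 09I1, is blue for most synthesis genes and the fourth, basal 29I1, is red for most of them, while Abca1, Abcg1 and Hsd17b7 are red in the first column.

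The levels of the 7 genes varied together from array to array. The median Pearson correlation over their 21 pairs was 0.78 on the 10 arrays, with 21 of 21 pairs above 0 and a range of 0.14 to 0.95. Over all pairs of tested genes the median was 0.01, and 3.46% of pairs lay above the median of the set. Idi1 and Cyp51 were the most alike (0.95), followed by Fdps and Insig1 (0.94), the branch-point enzyme and the protein that anchors SCAP. Lss was the least alike, with 0.14 against Fdps, 0.26 against Dhcr7 and 0.28 against Insig1. On the 9 arrays other than final 09I1 the same pairs had 0.88, 0.78 and 0.80. On those 9 arrays the median was 0.86 (range 0.73 to 0.96, with 0.536% of all gene pairs above it). With both arrays of 09I1 left out, 8 arrays gave 0.68 (range 0.43 to 0.93, with 5.30% of all pairs above it). After each group's mean was taken off, the median was 0.80. The arrays share one normalization and come in pairs from 5 tumors, and these correlations are descriptions with no test.

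**Figure D3:**
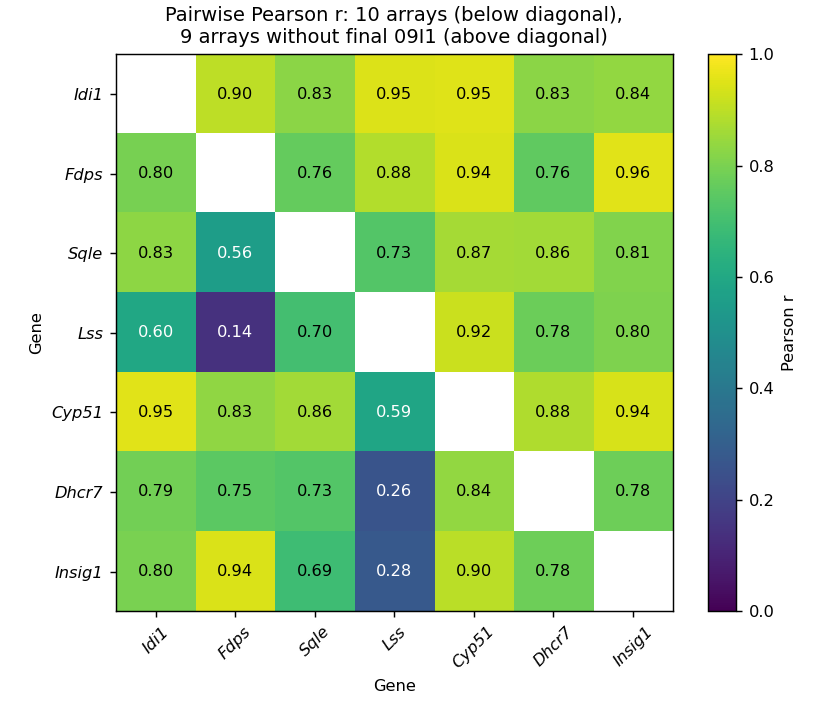
Pearson correlation of the levels of each pair of the 7 genes, over all 10 arrays below the diagonal and over the 9 arrays without final 09I1 above it, with the value printed in each cell and in colour. All 21 pairs are above 0 on both sides of the diagonal, and the low cells of Lss below the diagonal (0.14 to 0.28) have no counterpart above it (0.78 to 0.88).

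Other genes were ranked by how closely they followed the set, by their correlation over the 10 arrays with the mean of the 7 standardised levels, among 7964 genes of at least median level. The 10 most alike were Eif4e (0.97), Eif2s2 (0.97), Msmo1 (0.96), Psmd2 (0.96), Usp14 (0.95), Pfn1 (0.95), Gars1 (0.93), Psmd14 (0.92), Erp29 (0.92) and Eif5a (0.91). Msmo1, a methyl sterol oxidase of the sterol steps, was the only one of them in the lists of sterol and fatty acid genes. It read 7.99, 9.06, 9.21, 9.36 and 8.83 on the basal arrays and 8.37, 9.09, 8.74, 8.75 and 8.83 on the final ones, so that 09I1 was again the lowest and 29I1 the highest before treatment. Eif4e, Eif2s2 and Eif5a encode factors of protein synthesis, Gars1 a tRNA synthetase, Psmd2 and Psmd14 subunits of the proteasome and Usp14 a deubiquitinase bound to it. Pfn1 encodes the actin-binding protein profilin, and Erp29 a protein of the endoplasmic reticulum. Apart from Msmo1, each spanned fewer log2 units than any of the 7 genes. Eif4e, for example, lay at 9.92 on the basal array of 09I1 and at 10.60 on that of 29I1. Without 09I1, the 8-array correlation of these 10 genes ranged from 0.71 for Eif5a to 0.96 for Erp29. Among the other pathway genes of sufficient level, Fdft1 stood at rank 20 with 0.89 and Nsdhl at rank 108 with 0.79, and 2 of 38 pathway genes were among the 100 most alike.

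The rest of the pathway was covered by 7 lists with 71 genes, of which 57 were measured. The lists, like the set, were drawn up with earlier results of these data known. In all 7 lists limma called 0 genes at an adjusted p under 0.05. At an unadjusted p under 0.05 limma called 3 of the 57, against 2.88% of all genes tested. These were Sqle and Elovl6 with a lower and Thrsp with a higher mean in the final samples. Of the 20 listed synthesis genes 17 were measured. In the isoprenoid and squalene steps, 6 of 8 genes had a mean change below 0, against 47.3% of all genes, with a median of -0.15. Without 09I1 all 8 were below 0, with a median of -0.42, whereas without 29I1 the median was -0.0079 and without 12I1 it was -0.028. In tumors 29I1 and 43D1 all 8 of these genes were lower in the final sample (54.3% and 51.1% of all genes), and in 09I1 none was (41.4%). Beside Idi1 and Sqle, Mvd, which makes isopentenyl diphosphate, had a change of -0.20 ± 0.30 and Fdft1, squalene synthase, one of -0.13 ± 0.17 (limma, adjusted p = 0.977 for both). In the sterol steps, 5 of 9 genes had a mean change below 0, near the 47.3% of all genes, with a median of -0.13. Leaving out 09I1 gave -0.14, leaving out 12I1 gave -0.051 and leaving out 29I1 gave -0.015. Msmo1 had a change of -0.13 ± 0.18. The brightest probe set of Sc5d, a sterol desaturase, had one of -0.18 ± 0.21, which was 0.033 without 09I1, whose own difference was -1.03. The dimmer Sc5d probe sets were higher in the final sample of 09I1, by 0.23 and 0.77. Without 09I1 their changes were -0.21 and -0.071.

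Hsd17b7, a reductase of the sterol steps named here after its values were seen, differed from the set. It read 10.43 on the basal array of 09I1 and 7.32 to 7.97 on the other basal arrays, and its second probe set was highest on that array too, at 7.05. Its lowest basal value, 7.32, was in 29I1, where most of the set was highest. Its correlation with the set's mean was -0.57 over 10 arrays and -0.34 over the 8 without 09I1.

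The genes that sense sterol and process SREBP gave a median change of -0.18, which without 09I1 was 0.08. Srebf2, the gene of SREBP-2, was lower in the final sample of 5 of 5 tumors, with a change of -0.25 ± 0.13 (limma, unadjusted p = 0.0967, adjusted p = 0.977). The brighter Scap probe set was also lower in 5 of 5, with -0.22 ± 0.13 (limma, adjusted p = 0.977), but the second had a change of 0.077 ± 0.18 and was higher in 3 of 5. Srebf1, which encodes the SREBP of fatty acid synthesis, had a change of 0.02 ± 0.15, and Insig2, the second INSIG gene, one of -0.08 ± 0.25, or 0.18 without 09I1. The proteases that cut SREBP, Mbtps1 and Mbtps2, had changes of -0.18 ± 0.23 and -0.21 ± 0.29. Both turned without 09I1, to 0.075 and 0.14, and each was higher in the final sample of 3 of 5 tumors. Srebf2 followed the set only loosely, with a correlation of 0.37 with its mean, and its level in basal 09I1 (8.76) was close to that in basal 11D2 (8.74).

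Uptake and transport genes had a median change of 0.04 over 7 measured genes of 12. Its sign turned without 43D1 (-0.094), 11D2 (-0.023) or 12I1 (-0.011). Vldlr, a lipoprotein receptor, had a change of -0.21 ± 0.16, and Npc2 and Stard3, which act on endosomal cholesterol, had 0.06 ± 0.17 and 0.10 ± 0.11. Stard4 encodes a sterol carrier and is known as an SREBP target. Its brightest probe set had -0.32 ± 0.21 and followed the set with a correlation of 0.87 over 10 arrays and 0.94 over 8. The dimmer Stard4 probe sets had changes of -0.0093 ± 0.39 and -0.15 ± 0.13.

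Genes of efflux, esterification and oxysterol sensing had a median change of 0.13, and without 11D2 the median was 0.032. The mean was higher in 7 of 10, while 47.3% of all genes had a mean change below 0. Abca1, the exporter that loads cholesterol onto apolipoprotein and a target of the liver X receptors, read 10.68, 9.38, 9.86, 9.46 and 8.34 on the basal arrays, in tumor order. Its final readings were 9.51, 9.96, 10.60, 10.77 and 10.08. It was higher after treatment in the 4 tumors in which most of the set was lower, and lower in 09I1. The mean change was 0.64 ± 0.39 over 5 tumors and 1.09 without 09I1 (limma, unadjusted p = 0.144 and adjusted p = 0.977 over 5 tumors). All 4 Abca1 probe sets had the same direction in each tumor. The correlation of Abca1 with the set's mean was -0.53 over 10 arrays and -0.57 over 8. Abcg1, a second exporter named after its values were seen, had per-tumor differences of -1.77 in 09I1 and of 0.44 to 0.72 in the others. Mylip, a ubiquitin ligase and liver X receptor target that was also named after its values were seen, had correlations with the set of -0.34 over 10 arrays and -0.86 over 8. Nr1h3, a liver X receptor, had a change of 0.41 ± 0.27, or 0.14 without 09I1, and was lower in 2 of 5 tumors. Abcg4, another exporter, had 0.20 ± 0.13, or 0.095 without 09I1, and Cyp27a1, which makes an oxysterol, 0.21 ± 0.14 (limma, adjusted p = 0.977 for each).

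**Figure D4:**
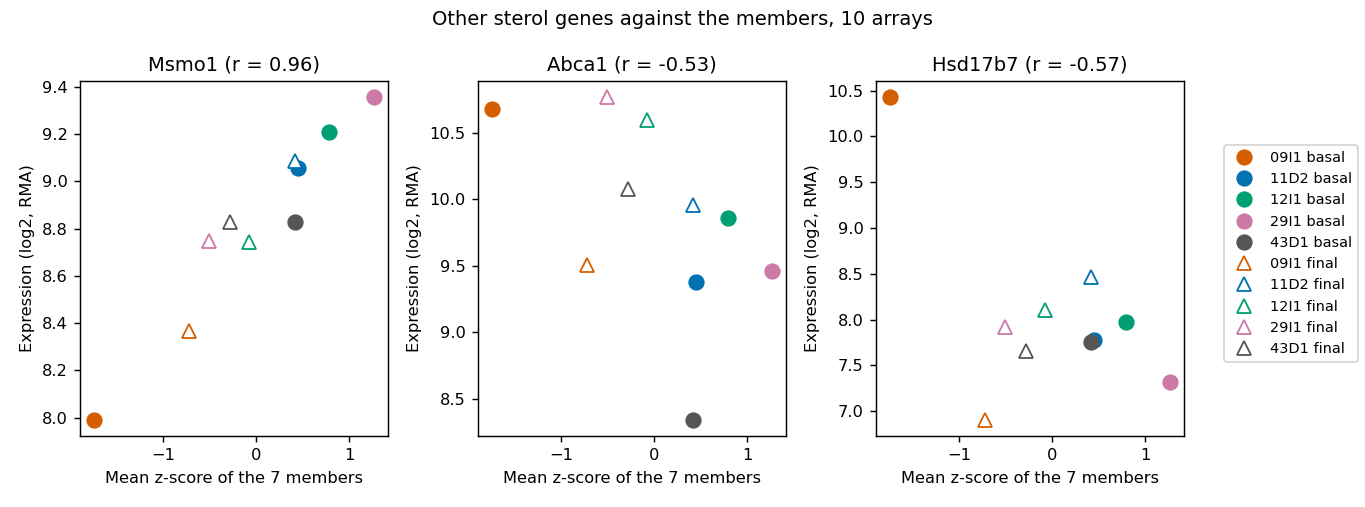
Level (log2, RMA) of Msmo1, Abca1 and Hsd17b7 on each of the 10 arrays against the mean standardised level (z-score) of the 7 genes, with filled circles for basal and open triangles for final arrays and 1 colour per tumor. Msmo1 climbs with the set (r = 0.96), Abca1 tends the other way (r = -0.53), and for Hsd17b7 the negative r of -0.57 comes with 1 point, basal 09I1, at 10.43.

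Genes that use farnesyl diphosphate for other products had a mean change above 0 in 7 of 7 on the brightest probe set, with a median of 0.16. That of Fntb was only 0.0003. The second Pggt1b probe set had a change of -0.30 ± 0.28, or 0.013 without 09I1, against 0.10 on the brightest. The dimmer Ggps1 probe sets had changes of 0.12 and -0.15. Over all genes, 47.3% had a mean change below 0. Without 09I1 the count was 5 of 7, with a median of 0.09 and with Fntb (-0.11) and Dhdds (-0.017) below 0. Their values were small, such as 0.16 ± 0.13 for Fnta, a farnesyltransferase subunit, 0.20 ± 0.15 for Pdss2 and 0.18 ± 0.17 for Coq2, both of ubiquinone synthesis, and 0.18 ± 0.21 for Dhdds, of dolichol synthesis. None passed the test in limma.

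**Figure D5:**
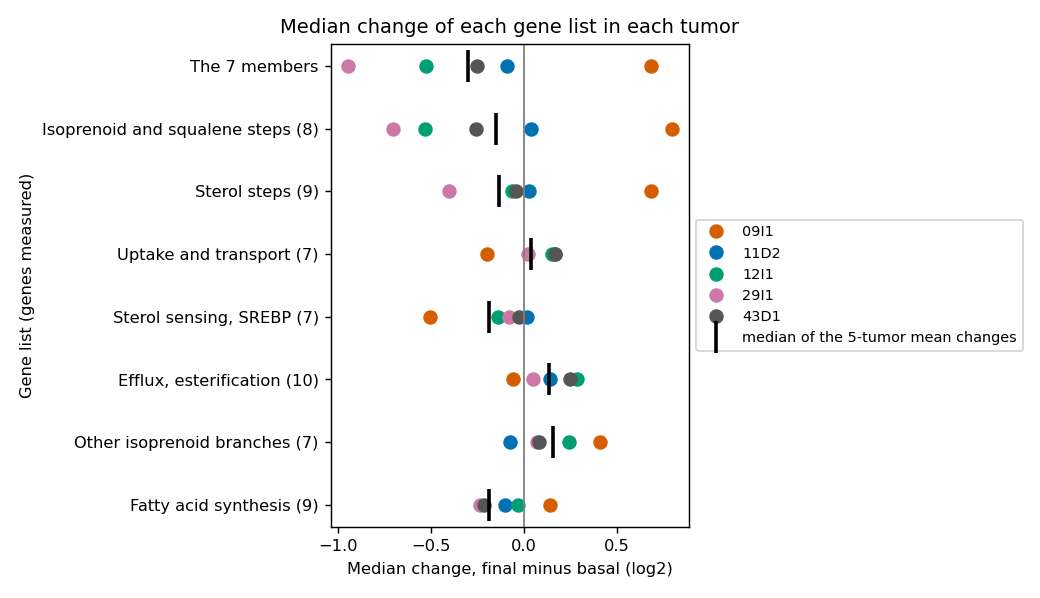
Median difference between final and basal (log2) of the 7 genes and of each of 7 pathway lists, with 1 coloured point per tumor and a black bar at the median of the genes' mean changes over 5 tumors; the number of genes measured stands in brackets. In the rows of the 7 genes and of both synthesis lists tumor 09I1 lies far right (0.68 to 0.80) and tumor 29I1 far left (-0.95 to -0.40). The medians of the uptake row span less (-0.20 to 0.17). Genes within that list moved in opposite directions, such as Mylip (-1.47 in 09I1 and 0.74 in 29I1) and Stard4 (0.11 in 09I1 and -1.07 in 29I1).

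Markers of other cell types and of proliferation were set beside these values. Proliferation genes (11 of 12 measured) had a lower mean in the final samples for 11 of 11, against 47.3% of all genes. The tumors differed, since 11 of 11 were lower in 29I1 and in 43D1 (median differences -2.0 and -2.32) and 0 of 11 in 09I1 and in 12I1 (1.77 and 0.26). Their summed level, as log2, lay between 10.69 and 12.64 on basal and between 9.25 and 12.33 on final arrays. Their mean level on the basal arrays was lowest in 09I1 (6.98) and highest in 29I1 (8.89), the same tumors as for the cholesterol genes, and over the arrays it followed the set with a correlation of 0.51, or 0.75 over 8 arrays. Myoepithelial genes (8 of 9 measured) were highest on the basal array of 09I1, at a mean of 11.07, and had a correlation of -0.66 with the set. Their summed level lay between 13.90 and 14.92 on basal and between 13.85 and 14.66 on final arrays. Adipocyte genes (9 of 10 measured) had summed levels of 9.97 to 11.74 and 9.94 to 12.07, and macrophage genes (10 of 10) of 12.70 to 14.73 and 13.11 to 14.04. Endothelial, fibroblast and macrophage genes followed the set with correlations of 0.52, 0.48 and 0.47 over 10 arrays (0.54, 0.37 and 0.49 over 8), and each had its highest basal mean in 29I1. Their summed levels were 10.32 to 11.10 and 10.37 to 10.67 for the endothelium (8 of 10 measured) and 14.07 to 15.09 and 13.76 to 15.18 for fibroblasts (10 of 10), on basal and final arrays. T and NK cell and adipocyte genes also had their highest basal mean in 29I1. Their correlations with the set were 0.39 and 0.22 over 10 arrays (0.22 and 0.27 over 8). Red blood cell genes had correlations of 0.09 over 10 and 0.58 over 8 arrays, and luminal genes of 0.02 and -0.67. Skeletal muscle genes (9 of 10 measured) had a mean of 9.64 on the final array of 11D2 and of 4.49 to 5.62 on the others. The part of these differences in the results for the cholesterol genes was not tested.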

How the data were processed

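RNA of 5 basal and 5 final rat mammary tumor samples was hybridised to Affymetrix Rat Genome 230 2.0 arrays. The deposited log2 values were made by the authors with the robust multichip average (RMA), per the submitters' processing notes, and GeneSpring GX 7.3 was used for their filter and paired test, per the series' design text. The deposited table still holds the 57 control probe sets, so the stated filter was not applied to it. The number of arrays limits the precision, and array values give no read depth.

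After removal of control probe sets, the dimmest 25% by mean level were set aside and 23281 were tested with limma 3.58.1 in R 4.3.3 (lmFit, eBayes with trend, tumor as a fixed block, Benjamini-Hochberg over all tested probe sets, threshold 0.05). The paired test follows the methods. A tumor code marks the same tumor in both groups. The deviations of its arrays from their group means correlated at 0.07, 0.09, 0.01, -0.15 and 0.22 over all probe sets in 09I1, 11D2, 12I1, 29I1 and 43D1. Where a gene had several tested probe sets, the brightest stood for it, and 436 probe sets with several symbols were not named. Correlations are Pearson's r. The script was tested on simulated data.

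The text names all members, up to 4 genes with the smallest p per pathway list, 9 fixed genes where measured and the 10 genes most alike the set. Members and lists were chosen with earlier results of these data known. RefSeq gave the same symbol for 7 of 7 genes. Alternatives were no block, other filters, cyclic loess, median centring, array weights, no trend, averaging each gene's probe sets, the methods' t-test and leaving out each tumor. Leaving out the final 09I1 array alone, and tumor 09I1 from the spreads and list counts, was added after the data were seen.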

Additional observations from a re-analysis of the deposited data

Results flagged for a closer look

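Of 37 sets of 5 values looked at, 4 held a value far from the other 4 in the same group. The sets were the basal levels, final levels and per-tumor differences of the 10 probe sets and the list medians. Chance gives about 1 in 20 for independent sets, but these share arrays, tumors and genes, so no excess can be read from the count. Each of the 4 was on an array of tumor 09I1. The basal level of Idi1 was 7.92 there on the brighter probe set, with the other 4 tumors at 9.55 to 10.10, and 6.02 on the second, with the others at 7.47 to 7.92. The basal level of Cyp51 was 8.25, against 9.65 to 10.13. The final level of Lss was 6.40, against 7.66 to 7.94, on the array whose beta-actin 3′ to 5′ difference was 2.61. The part of RNA quality in these values was not tested.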

How the results depend on the processing

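The count of probe sets and of members past the threshold was 0 in all 13 alternatives, including the fit with no replicate block (0 probe sets, 955 at an unadjusted p under 0.05, against 935 with the pairing of tumors). Unadjusted counts ranged from 606 to 2440 over the alternatives, and the smallest adjusted p of a member was 0.248, with array weights. The correlation of the set, 0.78 on 10 arrays, was 0.89 for the final minus basal differences of the 5 tumors and 0.86 without the final array of 09I1. Leaving out 1 tumor gave 0.68 to 0.81. The change of Dhcr7 turned from 0.03 to -0.093 with array weights and to -0.14 without tumor 09I1, and leaving out 1 tumor gave -0.14 to 0.13. That of Fdps turned from -0.09 to 0.012 without 12I1 and to 0.12 without 29I1, and that of Insig1 from -0.13 to 0.043 and 0.082. The median of the sterol sensing list moved from -0.18 to 0.075 without 09I1. The causes were not tested. The changes of Sqle (-0.56 to -0.36), Idi1 (-0.86 to -0.17), Cyp51 (-0.54 to -0.10) and Lss (-0.52 to -0.20) kept their sign in 14 alternatives each. Part of these could not turn a sign. No block, other filters, no trend and the t-test leave the mean difference of a probe set as it is. Averaging probe sets changes nothing for Sqle, which has a single one. The median of the members lay between -0.41 and -0.10 in 11 alternatives. The table holds no background signal, so how far each probe set lay above it was not assessed.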

Other observations

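Fatty acid synthesis, which SREBP-1 controls, had a mean change below 0 in 7 of 9 measured genes, against 47.3% of all genes, with a median of -0.18. Without 09I1 the count was 6 of 9 and the median -0.22. Thrsp, a lipogenic protein of mammary gland and fat, went the other way. It read 8.06, 8.03, 4.70, 7.79 and 7.84 on the basal arrays of 09I1, 11D2, 12I1, 29I1 and 43D1, and 9.00, 10.18, 9.84, 9.34 and 8.79 on the final ones. All 5 tumors were higher after treatment and the groups did not overlap, with a change of 2.15 ± 0.60 (limma, n = 5 tumors, unadjusted p = 0.00864, adjusted p = 0.977). Elovl6, a fatty acid elongase, had a change of -0.50 ± 0.20 with 4 of 5 tumors lower (limma, n = 5 tumors, unadjusted p = 0.0432, adjusted p = 0.977). Fasn, fatty acid synthase, had -0.19 ± 0.12 and Fads1, a desaturase, -0.29 ± 0.18. Scd, a desaturase named after its values were seen, read 9.98 on the basal array of 09I1 and 7.06 to 8.30 on the other basal arrays. For each of the 7 members that array had the lowest basal value, while Hsd17b7 was high there.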
